A study of Mus musculus with 12 samples.

Results

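B cell and plasma cell genes were followed in adipose vascular anomalies, which are lesions of malformed vessels in fat, and in normal adipose tissue of mice. The set held 29 genes chosen by symbol for what they are known to do in B cells and plasma cells, with earlier results of these data known. All 29 had a row in the deposited table of 32774 genes, 27 under the symbol deposited with it, and Ighm and Ighd under an Ensembl identifier that the reference names. The 8 anomaly libraries came from C57BL/6 mice of genotype VEC-Cre;SB Transposase; onc3, and the 4 normal libraries from C57BL/6 mice of genotype SB Transposase; onc3. Both groups therefore carried the Sleeping Beauty transposase and the onc3 transposon, and they differed in Cre, which the VE-cadherin promoter drives in endothelial cells. That promoter is also active in the embryonic endothelium that gives rise to blood cells, and which cells of a piece had expressed Cre was not measured. The titles name 7 anomaly animals, 1 of which, M566, gave a leg piece and an arm piece that were averaged here, whereas the design text counts 8 anomaly animals. The titles place 5 anomaly animals at a subQ site and 2, 18f and M278, in fat, as they do all 4 normal animals, so that the site and the group are partly confounded. The column of M605 is a control by 1 header line of the table and an anomaly by the second header line and by the sample labels, which were followed. Ages are not given in the sources used here.

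B cells recognise antigen through a membrane immunoglobulin that is paired with the signalling chains Cd79a and Cd79b, and inhibitory co-receptors and intracellular kinases set the strength of the signal. Activated B cells can become plasma cells, which shut down much of the B cell program under the repressor Prdm1 and secrete antibody in bulk. In adipose tissue B cells lie scattered and in small lymphoid clusters, and the tissue also holds many macrophages, which share several of these genes.

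Values are log2 CPM (read counts scaled to library size) as normalized by the authors, and a change is the anomaly mean minus the normal mean on that scale, tested with limma over the animals. The libraries held between 10337258 and 33980694 recovered reads, except that of anomaly animal M580 with 953994, in which 1 read was worth 0.742 CPM. Without molecular identifiers, read numbers bear on counting error only. Since whole tissue was sequenced, more cells of a type and more RNA per cell cannot be told apart. As a check of the tissue, all 8 adipocyte markers fell and 4 of 8 endothelial markers rose. Of the adipocyte markers 7 fell without M5, M602 or M2, 3 with limma-voom on recovered reads and 2 with the fat-titled anomalies alone. Of the endothelial markers 2 rose without F539, M2 or the arm piece of M566, 1 without M602 or without M580 and F539, and 0 with the fat-titled anomalies alone. None of the B cell markers Ms4a1, Cd79a, Cd79b and Pax5 was at 0 reads in any library.

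A gene was tested where its level averaged 1 log2 CPM or more across the 11 animals, as 25 of the 29 did. Among these 12 rose in the anomalies (adjusted p under 0.05), none fell and 13 did not pass. Over all 12955 genes tested 15.3% rose and 23.2% fell. The genes that rose were Cd79b of the receptor complex, the surface proteins Cd22, Cd72, Cd37 and Fcrl1, the signalling proteins Btk, Blnk and Bank1, the transcription factors Bach2, Irf8 and Prdm1, and the plasma cell proteoglycan Sdc1. The median log2 fold change of the 25 was 1.71, beside -0.10 over all genes tested. Of the 25, 7 had a normal mean under 1 log2 CPM and so passed the filter through their anomaly values, and Fcrl1 was the one of these that rose. With no filter 10 of the 29 rose, where 6.59% of all 32774 genes did, and Cd79b and Prdm1 no longer passed (adjusted p = 0.0654 and 0.0657). That share takes in every gene below the filter, whereas 25 of the 29 were above it, so the 2 are not like for like.

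**Figure D1:**
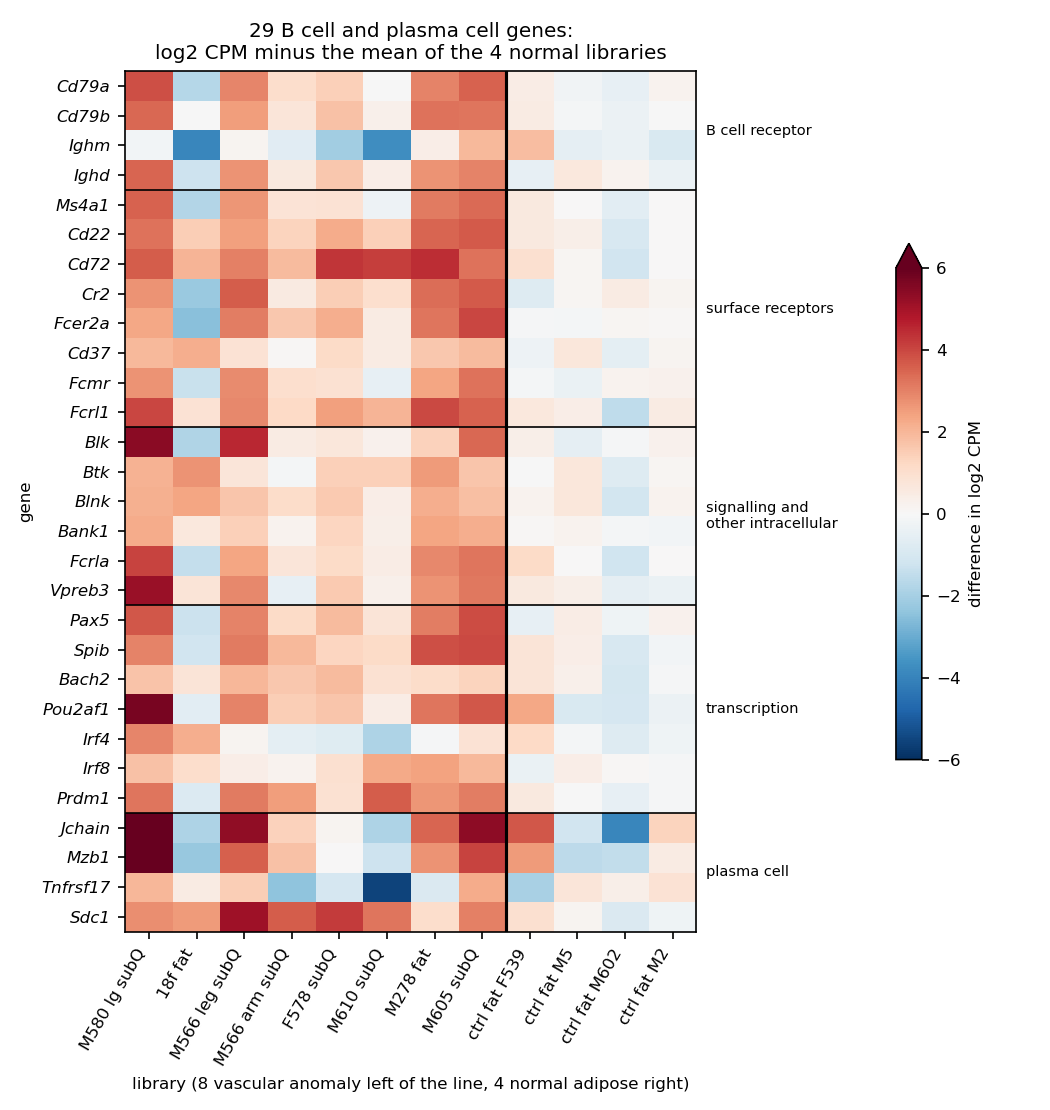
Levels of the 29 genes (rows, grouped by role) in the 8 anomaly libraries left of the line and the 4 normal libraries right of it, as log2 CPM minus the mean of the 4 normal libraries. Values above 6 share the darkest colour. The columns of M580, M605 and M278 are high in most rows, and the column of 18f is low in rows such as Cd79a, Ms4a1 and Pax5.

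The promoters of 4 genes are shown because 3 of these genes, Cd72, Cd37 and Cd22, rose, and the fourth, Cd79a, is a chain of the B cell receptor and did not pass. Each is RefSeq sequence on GRCm38.p6, 5′ to 3′ on the strand of the gene, with 250 bases before the RefSeq start and 50 from it on. Capitals mark motifs found on either strand: the PU box core GAGGAA, read as TTCCTC on the opposite strand, in Cd72, Cd37 and Cd79a, and in Cd22 the EBF motif, which is TCCC and GGGA with any 2 bases between them.
Cd72, chr4:43454577-43454876, minus strand: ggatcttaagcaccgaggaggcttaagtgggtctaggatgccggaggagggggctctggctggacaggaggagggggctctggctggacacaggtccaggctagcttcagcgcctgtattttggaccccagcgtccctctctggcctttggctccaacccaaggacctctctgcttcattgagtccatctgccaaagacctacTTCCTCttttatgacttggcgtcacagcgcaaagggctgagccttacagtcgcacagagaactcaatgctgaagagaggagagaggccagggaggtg
Cd37, chr7:45238790-45239089, minus strand: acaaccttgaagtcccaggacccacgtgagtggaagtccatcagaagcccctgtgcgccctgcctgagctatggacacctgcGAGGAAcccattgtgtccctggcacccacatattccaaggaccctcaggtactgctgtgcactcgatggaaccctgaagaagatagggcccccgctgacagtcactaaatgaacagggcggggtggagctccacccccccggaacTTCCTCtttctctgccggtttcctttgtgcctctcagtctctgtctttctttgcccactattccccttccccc
Cd22, chr7:30878979-30879278, minus strand: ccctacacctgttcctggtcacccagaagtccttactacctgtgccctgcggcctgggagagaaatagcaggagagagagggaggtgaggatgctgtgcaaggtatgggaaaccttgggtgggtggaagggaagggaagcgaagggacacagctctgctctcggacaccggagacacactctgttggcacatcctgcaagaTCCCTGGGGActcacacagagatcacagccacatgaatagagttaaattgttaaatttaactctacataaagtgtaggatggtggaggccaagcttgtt
Cd79a, chr7:24897247-24897546, plus strand: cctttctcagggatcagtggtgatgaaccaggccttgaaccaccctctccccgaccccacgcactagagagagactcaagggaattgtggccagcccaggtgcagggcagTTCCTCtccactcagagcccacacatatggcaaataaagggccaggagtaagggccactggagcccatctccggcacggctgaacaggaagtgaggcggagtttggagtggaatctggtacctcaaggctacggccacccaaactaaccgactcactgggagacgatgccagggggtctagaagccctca
Of the 29 genes, 23 had such a promoter, and Cd79b, Ms4a1, Blk, Mzb1, Ighm and Ighd had none in the table. The PU box core, which the factors PU.1 and Spi-B recognise, was in 12 of these 23 promoters, 6 of them among the 11 matched genes that rose, and in 28.3% of all 32851 promoters of this length. The octamer ATGCAAAT, bound by Oct factors with the co-activator Pou2af1, was in the promoters of Blnk and Vpreb3 and in 1.74% of all promoters. The EBF motif, in the exact form given above, was in the promoter of Cd22 and in 0.904% of all promoters. Other forms of EBF site were not searched, so a promoter without this match, such as that of Cd79a, may still hold one. In the promoters of the set no match overlapped one of another motif. Every promoter shown above holds a match, whereas those of Bank1, Bach2 and Irf8, which also rose, held none of these motifs. Counted from the RefSeq start, the first base of the PU box core lay at -47 in Cd72, at -140 in Cd79a and at -168 and -23 in Cd37.

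Of the 4 genes of the B cell receptor, Cd79b rose. Normal values are given in the order F539, M5, M602, M2. Cd79a, a signalling chain of the receptor (chr7:24897381-24902197, GRCm38), ranged from -0.62 in 18f to 4.96 log2 CPM in M580 across the anomaly animals, with a median of 3.07, against 1.56, 0.90, 0.60 and 1.31 in the normal animals. It was above every normal animal in 5 of 7 anomaly animals and below every one in 18f, and its change of 1.73 ± 0.95 (SE) did not pass (adjusted p = 0.169). Cd79b, its partner chain, lay between 2.02 in 18f and 5.45 in M580, with a median of 3.77, against 2.51, 1.90, 1.67 and 2.02 in normal adipose, and rose by 1.94 ± 0.67 (adjusted p = 0.0408). The groups overlapped, and 9 of the fits that left out 1 library left Cd79b short of the threshold, those without M580, the leg piece of M566, F578, M278, M605 or any one of the 4 normal animals, at adjusted p up to 0.109.

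Ighm, the constant region gene of the IgM heavy chain, was the most abundant gene of the set per length, with medians of 8.23 log2 CPM per kilobase of exon in the anomalies and 8.02 in normal adipose. Its level ran from 5.49 in 18f to 11.34 in M605, with a median of 9.15, against 11.27, 8.86, 9.02 and 8.49 in the normal animals. No separation was seen, with 1 anomaly animal above and 3 below the whole normal range, and the change of -1.12 ± 1.09 did not pass (adjusted p = 0.438). Ighd, the IgD constant region gene of mature naive B cells, lay between 1.15 and 5.87 with a median of 4.02 in the anomalies, against 1.90, 3.02, 2.61 and 1.99 in normal adipose, a change of 1.65 ± 0.78 (adjusted p = 0.115).

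The surface proteins included Cd72, which had the largest change of the 25 genes tested. It is an inhibitory co-receptor of B cells (chr4:43446462-43454628) and stood at 3.97 in 18f, a median of 5.55 and 6.38 in M278 among the anomaly animals, against 2.90, 2.06, 0.78 and 1.97 in the normal animals. Every anomaly animal was above every normal animal, which held for 8.3% of all genes tested, and Cd72 rose 11.1-fold (log2 fold change 3.47 ± 0.52, adjusted p = 0.00125). The libraries were unstranded, and 1423 exon bases of Cd72, 41.6% of its length, also belong to exons of Tesk1 on the opposite strand, which showed a change of -0.54 ± 0.22 (adjusted p = 0.0734). Cd22, a sialic acid-binding inhibitory receptor of B cells, ran from 3.25 in M610 to 5.51 in M605 with a median of 4.04, against 2.39, 2.17, 0.88 and 1.84 in normal adipose. Its groups did not overlap either, and it rose 5.65-fold (2.50 ± 0.51, adjusted p = 0.00404). Cd72 and Cd22 were thus above every normal animal in 18f too, where Cd79a, Ms4a1 and Pax5 were below every one. Which cells held their transcripts was not tested.

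Fcrl1, an Fc receptor-like protein of B cells, lay between 0.34 and 3.48 with a median of 1.93 in the anomalies, against 0.10, -0.12, -2.02 and -0.03 in normal adipose, again without overlap. It rose by 2.70 ± 0.66 (adjusted p = 0.00938), with 6 reads behind its lowest normal value, that of M602. Cd37, a tetraspanin of leukocytes, was between 4.88 in M566 and 6.57 in 18f with a median of 6.01, against 4.12, 5.10, 3.83 and 4.57 in the normal animals. It rose by 1.39 ± 0.38 (adjusted p = 0.0148), though not without M602 (1.20, adjusted p = 0.0589). Ms4a1, which encodes the B cell antigen CD20, ranged from -0.76 in 18f to 4.53 in M580 with a median of 2.74, against 1.6, 1.01, 0.36 and 1.04 in normal adipose, and its change of 1.51 ± 0.96 did not pass (adjusted p = 0.231). Fcmr, the Fc receptor for IgM, ran from -1.0 in 18f to 3.58 in M605 with a median of 2.24, against 0.22, -0.06, 0.53 and 0.58 (1.34 ± 0.82, adjusted p = 0.213). Neither passed, and both were above the normal range in 5 of 7 anomaly animals. Cr2, complement receptor 2, and Fcer2a, the low-affinity IgE receptor, were below the filter, Cr2 with between -3.32 and 2.58 log2 CPM (median 0.99) and Fcer2a with between -2.93 and 3.58 (median 1.90) in the anomalies. The normal values of Cr2 were -1.86, -1.0, -0.63 and -0.93, and those of Fcer2a -0.48, -0.53, -0.31 and -0.35. Both were above every normal animal in 6 of 7 anomaly animals and below every one in 18f, where 3 reads of Cr2 and 4 of Fcer2a were found.

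Of the 5 signalling proteins tested, 3 rose. Btk, the kinase downstream of the receptor that B cells share with myeloid cells, lay between 2.70 in M566 and 5.10 in 18f with a median of 4.10, against 2.37, 3.11, 1.66 and 2.52 in normal adipose, and rose by 1.73 ± 0.43 (adjusted p = 0.0105). Blnk, the adaptor that links the receptor to Btk, lay between 3.47 in M610 and 5.44 in 18f with a median of 4.86, against 3.29, 3.74, 1.95 and 3.25, and rose by 1.70 ± 0.41 (adjusted p = 0.00855). Both exceeded every normal animal in 6 of 7 anomaly animals and were highest in 18f, the animal with the lowest Cd79a and Ms4a1 and the highest sum of macrophage markers, 6290 CPM, whose part in these levels was not tested. Bank1, a B cell scaffold protein, lay between 1.79 and 3.78 with a median of 2.72, against 1.51, 1.64, 1.31 and 1.27, without overlap, and rose by 1.40 ± 0.42 (adjusted p = 0.0215). It did not pass without M602 (1.36, adjusted p = 0.0631) or without M2, whose fit gave 1.35.

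Blk, a Src family kinase of B cells, spread from -1.09 in 18f to 6.14 in M580 with a median of 2.13, against 1.10, 0.20, 0.64 and 0.99 in normal adipose (1.70 ± 1.10, adjusted p = 0.238). Fcrla, an intracellular Fc receptor-like protein, spread from -1.41 to 4.09 with a median of 1.57, against 1.16, 0.05, -1.17 and 0.02 (1.70 ± 0.93, adjusted p = 0.170). Neither passed, and both were above the normal range in 5 of 7 anomaly animals. Vpreb3, a chaperone of immunoglobulin chains known from developing B cells, was below the filter at between -2.15 and 2.74 log2 CPM (median -0.86) in the anomalies, against -1.86, -2.09, -2.97 and -2.86, and its highest value, in M580, rests on 9 reads.

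Of the 7 transcription regulators, 3 rose. Irf8, a factor of B cells, macrophages and dendritic cells, lay between 5.08 in M566 and 7.19 in M278 with a median of 6.55, against 4.39, 5.18, 4.83 and 4.73 in normal adipose. It exceeded the normal range in 6 of 7 anomaly animals and rose by 1.52 ± 0.38 (adjusted p = 0.00997). Bach2, a repressor that keeps B cells from becoming plasma cells, lay between 3.07 in 18f and 4.21 in F578 with a median of 3.64, against 3.11, 2.64, 1.26 and 2.27, and rose by 1.36 ± 0.35 (adjusted p = 0.0115). Prdm1, the repressor that drives the plasma cell program and also acts in T cells and macrophages, lay between 1.5 in 18f and 5.97 in M610 with a median of 5.14, against 2.92, 2.30, 1.83 and 2.23. Prdm1 rose by 2.21 ± 0.75 (adjusted p = 0.0385), and 7 single-library fits, those without M580, M610, M278, M605, M5, M602 or M2, and the fit without both pieces of M566, did not pass, at adjusted p up to 0.108.

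Pax5, the factor that holds B cell identity, ranged from -0.49 in 18f to 4.73 in M605 with a median of 2.87, against 0.33, 1.28, 0.57 and 1.08 in normal adipose. It was above the normal range in 6 of 7 anomaly animals and below it in 18f, and its change of 2.02 ± 0.87 did not pass (adjusted p = 0.0872). Spib, an Ets factor of B cells and plasmacytoid dendritic cells, had the same positions, from -0.62 in 18f to 4.45 in M605 with a median of 3.05, against 1.27, 0.90, -0.47 and 0.35 (2.09 ± 0.88, adjusted p = 0.0807). Pou2af1, the co-activator of the Oct factors in B cells, lay between 0.38 and 6.70 with a median of 3.23, against 3.32, 0.10, 0.00 and 0.67, so that the normal animal F539 was above the anomaly median (2.32 ± 1.10, adjusted p = 0.116). Irf4, a factor of activated B cells, plasma cells and T cells, lay between 1.61 and 6.42 with a median of 3.39, against 4.67, 3.35, 2.69 and 3.21 (0.44 ± 0.82, adjusted p = 0.693).

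**Figure D2:**
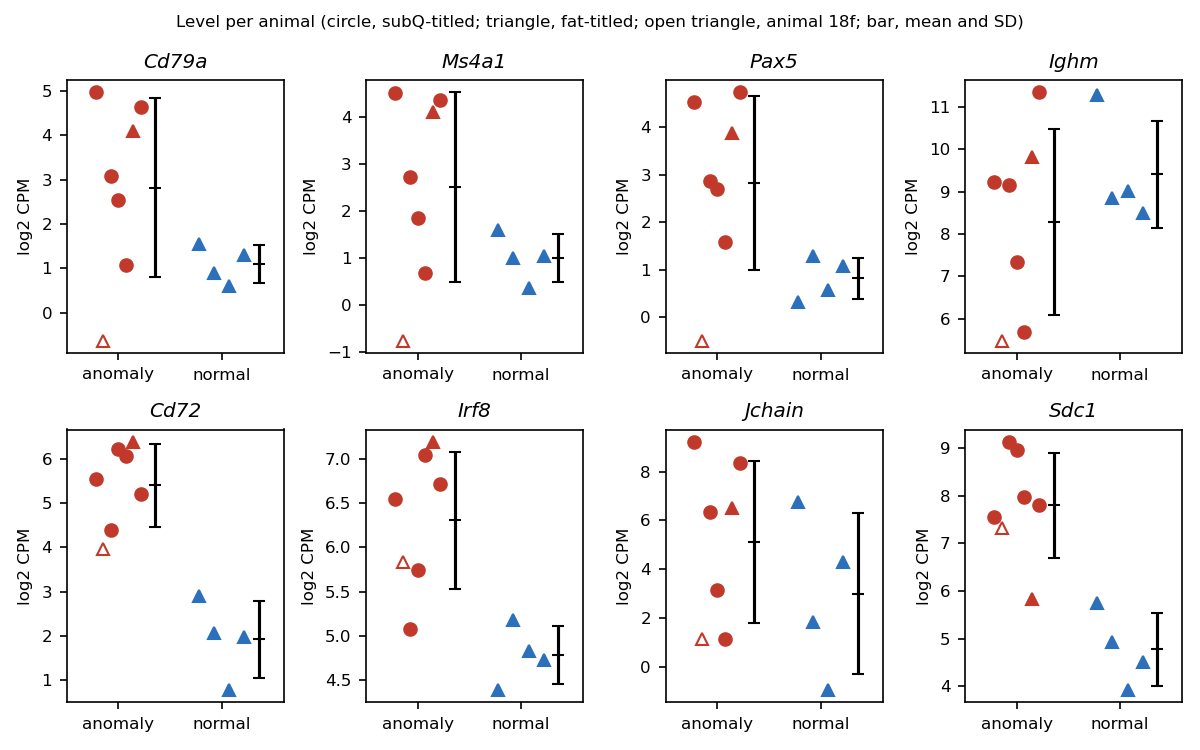
Level of 8 genes in each animal in log2 CPM, 7 anomaly animals left and 4 normal animals right in each panel. The bars give the mean and SD, circles are subQ-titled and triangles fat-titled animals, and the open triangle is 18f. Cd72 and Sdc1 show no overlap, while Cd79a, Ms4a1 and Pax5 are lowest in 18f.

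Of the 3 plasma cell genes tested, Sdc1 rose and Jchain and Mzb1 did not pass. Sdc1, the plasma cell surface proteoglycan syndecan-1 that epithelia also make, ran from 5.83 in M278 to 9.13 in M566 with a median of 7.80, against 5.74, 4.92, 3.92 and 4.51 in normal adipose. The groups did not overlap, and it rose 8.11-fold (3.02 ± 0.57, adjusted p = 0.00297). None of the 7 epithelial markers tested rose, and their summed level ran from 9.40 CPM in M610 to 8440 CPM in M566, against 6.53 CPM in M5 to 1540 CPM in F539 in normal adipose. Without F539, 2 of these 7 passed. The highest Sdc1 was in M566, the animal with the highest epithelial sum. Of the anomaly animals with the lowest sums, M610 had 7.96 log2 CPM of Sdc1, and M278, at 11.4 CPM of epithelial markers, had the lowest Sdc1, 5.83, next to 5.74 in normal animal F539. Jchain had the reverse order in these 2 animals, at 1.16 log2 CPM in M610 and 6.51 in M278. In 18f, the next lowest at 18.1 CPM of epithelial markers, Sdc1 was above every normal animal and Jchain was at 1.15, its lowest anomaly value. M566, with the highest Sdc1, had Jchain at 8.31 in the leg piece and 4.37 in the arm piece. The parts of epithelial and of plasma cell RNA in Sdc1 were not tested.

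Jchain, which joins IgM and IgA into polymers, ranged from 1.15 in 18f to 9.21 in M580 with a median of 6.34, against 6.74, 1.87, -0.93 and 4.32 in the normal animals (2.13 ± 1.86, adjusted p = 0.383). Mzb1, a chaperone of antibody secretion, ranged from -1.81 in 18f to 6.56 in M580 with a median of 3.12, against 3.02, -1.11, -1.04 and 0.97 (1.71 ± 1.53, adjusted p = 0.393). Both were high in the normal animal F539, and the normal values alone spanned several log2 units. Mzb1 shares 57.2% of its exon bases with an overlapping Spata24 model on the same strand, so its level is less certain. Tnfrsf17, the plasma cell survival receptor BCMA, was below the filter, at between -6.97, the value of 0 reads, in M610 and 0.80 in M605 with a median of -1.90, against -3.37, -0.70, -1.04 and -0.54.

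**Figure D3:**
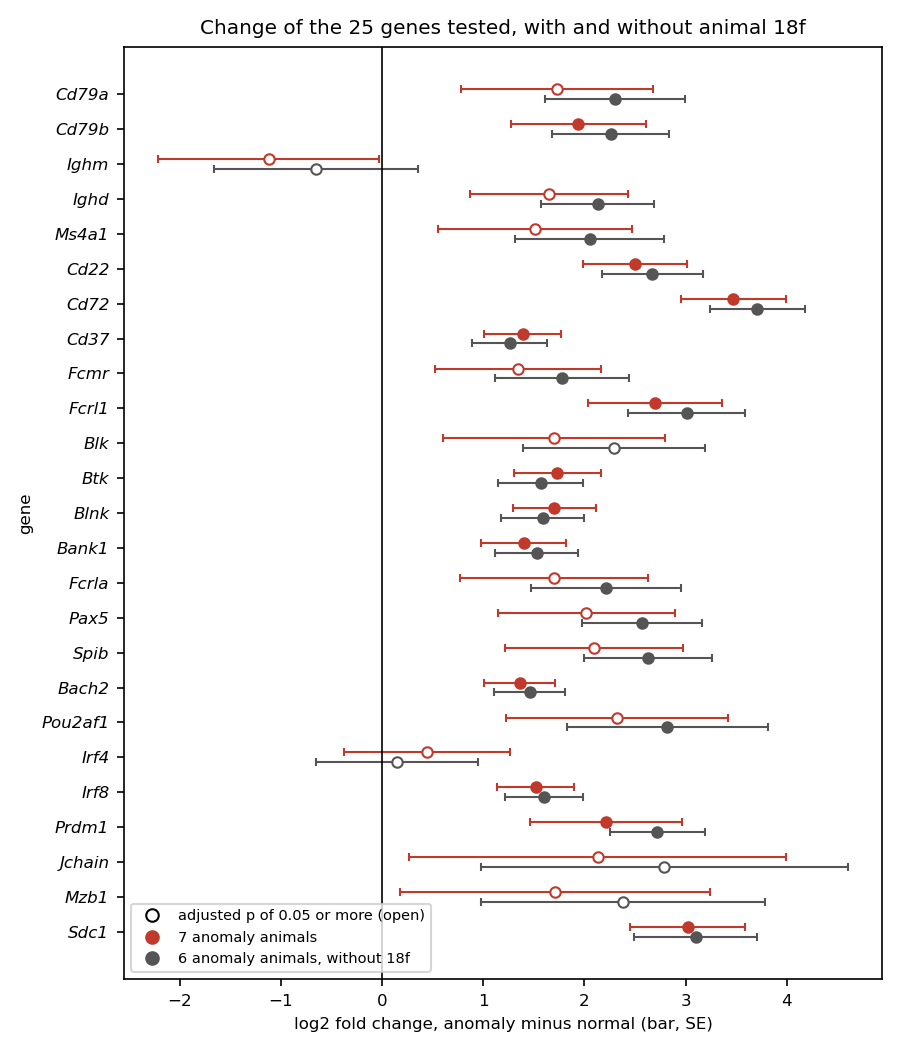
Log2 fold change, anomaly minus normal, with its SE for the 25 genes tested, in all 7 anomaly animals (red) and in the 6 without 18f (grey). Filled points passed an adjusted p of 0.05. Cd79a, Ms4a1 and Pax5 are open in red and filled in grey, and Ighm and Irf4 are open in both.

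Animals differed in how much of the set they showed. Of the 29 genes, 28 were above every normal animal in M580 and in M605, 25 in M278, 23 in F578, 21 in M566, 13 in M610 and 11 in 18f. Over all genes tested, which leave out 4 of the 29, this share was between 23.1% in M580 and 35.4% in M610. In M580 1 read gave -0.41 log2 CPM, which is above the highest normal values of Tnfrsf17, -0.54, of Cr2, -0.63, and of Vpreb3, -1.86. In 18f 13 of the 29 genes were below every normal animal, among them Cd79a, Ms4a1, Pax5, Ighd, Cr2 and Fcer2a, where 29.3% of all genes tested were. In M610 4 were, where 38.8% of all genes were, in F578 1, where 37.8% were, and in M580, M605, M278 and M566 none, where between 37.1% and 53.6% were. For 23 of the 29 genes at least 5 of the 7 anomaly animals were above every normal animal, which held for 22.7% of all genes tested. The other genes were Mzb1, Pou2af1, Irf4, Jchain, Tnfrsf17 and Ighm.

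**Figure D4:**
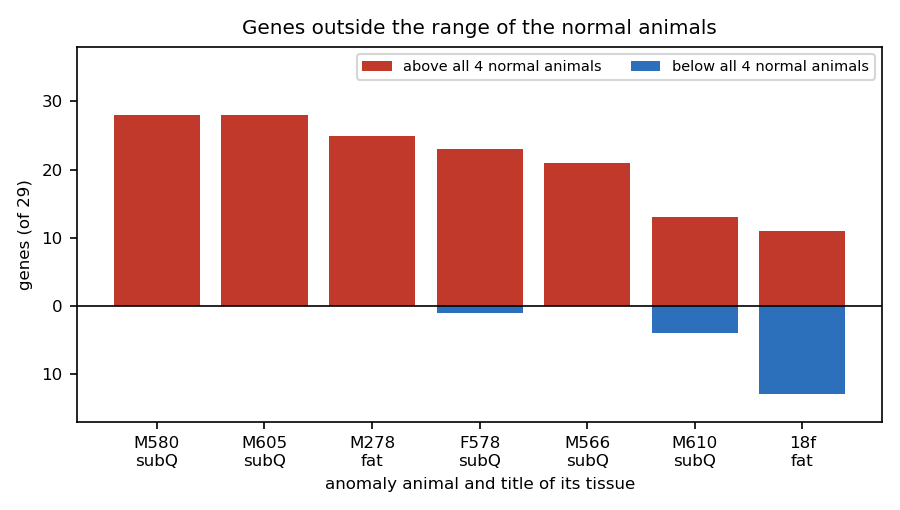
Number of the 29 genes above all 4 normal animals (red, upward) and below all 4 (blue, downward) in each anomaly animal, with the site in its title. The count above runs from 28 in M580 and M605 to 11 in 18f, where 13 genes are below.

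The count of genes that passed was highest without animal 18f. Then 20 of the 25 rose, where 17.7% of all genes did, the 12 of the full comparison and Cd79a, Ighd, Ms4a1, Fcmr, Fcrla, Pax5, Spib and Pou2af1. The change of Cd79a was then 2.30 ± 0.69 (adjusted p = 0.0216), that of Ms4a1 2.05 ± 0.74 (adjusted p = 0.0450) and that of Pax5 2.57 ± 0.59 (adjusted p = 0.00623). Ighm, Blk, Irf4, Jchain and Mzb1 did not pass without 18f either. 18f held the lowest anomaly value of Cd79a, Ighd, Ms4a1, Fcmr, Fcrla, Pax5, Spib and Pou2af1, so leaving it out had to raise their changes. Of these, Fcmr, Fcrla, Pax5 and Spib had also passed the filter through their anomaly values. The 18f library was the deepest of the anomalies, with 29763059 reads, and held 21 reads of Cd79a and 19 of Ms4a1. It also had a Cd3e level of 4.20 log2 CPM, above every normal animal. With other choices of scale, test and animals the count was between 4 and 14. In all, 14 rose with library totals as the scale (35.3% of all genes), 9 with limma-voom on recovered reads (15.9%), 8 without normal animal M602 (9.18%), 8 without M580 and F539 (14.6%), and 4, namely Cd37, Btk, Blnk and Irf8, with the fat-titled anomalies alone (6.58%). Without M605, the animal with the conflicting header, 10 rose (12.9%), and without the shallow library of M580 10 did (15.1%), the full comparison's genes other than Cd79b and Prdm1 in both cases. Btk, Blnk and Irf8 passed in all 25 alternatives run.

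Between the sites named in the titles no gene of the set passed. In the subQ-titled minus fat-titled anomalies, 5 against 2 animals, 0 of 25 genes passed with limma, where 0.0386% of all genes did, and Btk and Sdc1 had an unadjusted p under 0.05. The difference was -1.24 ± 0.46 for Btk (adjusted p = 0.283) and 1.71 ± 0.59 for Sdc1 (adjusted p = 0.259). Cd79a differed by 1.52 ± 1.24 (adjusted p = 0.573), with 18f as 1 of the 2 fat-titled animals. With limma-voom 0 passed and 3, Btk, Prdm1 and Sdc1, had an unadjusted p under 0.05.

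Within animal M566 the leg piece held more of these transcripts than the arm piece. All 29 genes were higher in the leg, where 50.1% of all genes tested were, by a median of 1.51 log2 units. Blk had the widest gap, with a level of 5.27 in the leg piece against 1.23 in the arm piece, followed by Jchain with 8.31 against 4.37. Irf8 had the narrowest, with 5.18 in the leg piece against 4.98 in the arm piece, followed by Bach2 with 4.29 against 3.94. Each piece is 1 library, so this difference has no replicate check.

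Cd79a, Ms4a1 and Jchain ranked the 7 anomaly animals alike. Cd79a and Ms4a1 correlated at r = 0.99 (exact permutation p = 0.000198, adjusted p = 0.000794 over the 4 relations computed) with a Spearman rho of 1.00 (exact permutation p = 0.000397). Cd79a and Jchain correlated at r = 0.94 (exact permutation p = 0.000992, adjusted p = 0.00198), also with a rho of 1.00 (exact permutation p = 0.000397). Leaving out 18f and M610, the animals farthest from the median of Cd79a, gave r = 0.98 and r = 0.94 for these pairs. The order ran from 18f at the bottom through M610, F578, M566, M278 and M605 to M580, the shallowest library, at the top.

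Cd79a did not show such a relation to the T cell receptor chain gene Cd3e (r = 0.29, exact permutation p = 0.530, rho = 0.39, exact permutation p = 0.396). That value rested on 18f, since without it r was 0.89 (adjusted p = 0.0167, exact permutation), while without M610 it was 0.09. Without both r was 0.87 over 5 animals. With Cxcl13, the chemokine that draws B cells into follicles, r was 0.58 and rho 0.54 (exact permutation p = 0.173 and 0.236, adjusted p = 0.231 and 0.314). Without 18f and M610 it was 0.05, and without M605 it was 0.90 (adjusted p = 0.0222, exact permutation), so both relations turn on single animals. All tests of relations were two-sided.

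**Figure D5:**
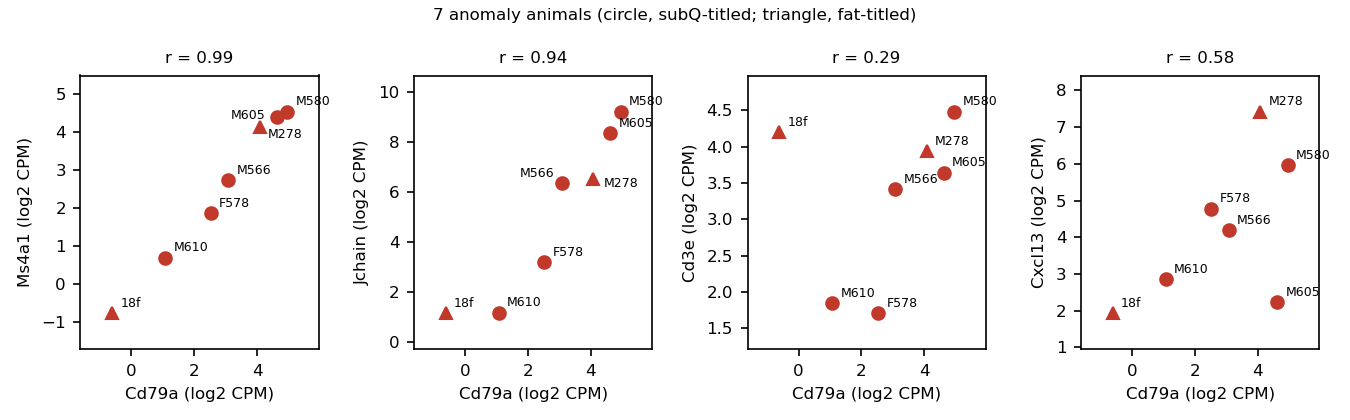
Level of Ms4a1, Jchain, Cd3e and Cxcl13 (vertical, log2 CPM) against Cd79a (horizontal, log2 CPM) in the 7 anomaly animals, with Pearson's r above each panel. The points of Ms4a1 and Jchain climb with Cd79a in every step, and 18f lies apart in the panel of Cd3e.

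Further genes of B cell identity and receptor signalling, from a list of 36 of which 35 were found, moved in both directions. Of 34 tested, 21 rose and 3 fell, with a median of 1.57. Among the largest rises were those of Siglecg, an inhibitory receptor of B cells, at 2.35 ± 0.62 (adjusted p = 0.0128), Vav1, an exchange factor of leukocytes, at 2.29 ± 0.39 (adjusted p = 0.00192) and Ptpn6, the phosphatase SHP-1, at 2.18 ± 0.32 (adjusted p = 0.00119). Those that fell were Ebf1, a factor of B cells that adipocytes and their precursors also express, by 2.03 ± 0.40 (adjusted p = 0.00350), the complement regulator Cd55 by 1.29 ± 0.39 (adjusted p = 0.0231) and the repressor Bcl6 by 0.84 ± 0.25 (adjusted p = 0.0217). Ebf1 stood between 4.76 and 6.38 with a median of 5.76 in the anomalies, against 6.66, 8.05, 8.28 and 7.84 in normal adipose, without overlap. Without M602 13 rose and 1 fell, and neither Cd55 nor Bcl6 passed without M602 (adjusted p = 0.0788 and 0.0646) or without M5. With library totals as the scale, Ebf1 was the 1 that fell (-1.6, adjusted p = 0.00328).

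Constant region genes of the light chains and of the switched heavy chains spread widely between animals. None of the 7 tested passed with limma (median 2.35), and Igha, of the IgA heavy chain, did without 18f (3.57, adjusted p = 0.0479). Igkc, the kappa light chain, ran from 4.45 in M610 to 14.18 in M580 with a median of 9.59, against 10.63, 4.33, 3.29 and 7.46 in normal adipose (2.36 ± 1.98, adjusted p = 0.364). The summed level of the 10 genes lay between 42.1 CPM in M610 and 47900 CPM in M580, against 20.5 CPM in M602 and 2150 CPM in F539. The switched heavy chain genes resemble each other in sequence, so reads may be split or lost between them.

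Of 13 other plasma cell and antibody secretion genes tested, 6 rose and 1 fell (median 0.93). Tent5c, a poly(A) polymerase of plasma cells, rose by 1.86 ± 0.55 (adjusted p = 0.0217), Slamf7, a receptor of plasma and other leukocytes, by 1.73 ± 0.52 (adjusted p = 0.0222), and the endoplasmic reticulum genes Fkbp11 and Sdf2l1 by 1.65 ± 0.48 (adjusted p = 0.0204) and 1.16 ± 0.33 (adjusted p = 0.0185). Ell2, an elongation factor of antibody secretion, fell by 1.12 ± 0.37 (adjusted p = 0.0329). Xbp1, the factor that expands the secretory pathway, lay between 7.5 and 9.23 with a median of 7.77, against 7.69, 7.79, 8.03 and 8.50 (0.02 ± 0.33, adjusted p = 0.958). Without M602, 1 of the 13 rose and none fell, with adjusted p = 0.0608 for Tent5c, 0.0647 for Slamf7, 0.0723 for Fkbp11 and 0.0548 for Sdf2l1. Without M580 and F539 3 rose. Tent5c also did not pass without M5 or M2, and Ell2 did not pass without the arm piece of M566, F578, M610, M278, M605, M5, M602 or M2 (adjusted p up to 0.102) or with library totals as the scale (-0.69, adjusted p = 0.125).

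Of 8 lymphoid niche genes tested, 4 rose (median 1.36). Ccr7, the homing receptor of lymphocytes and dendritic cells, lay between -0.01 in 18f and 3.55 in M605 with a median of 3.11, against -0.88, 0.05, -0.63 and 1.17 in normal adipose, and rose by 2.73 ± 0.69 (adjusted p = 0.0107). Cxcl13 lay between 1.94 in 18f and 7.42 in M278 with a median of 4.20, against 2.10, -0.79, 0.68 and 2.40 (3.10 ± 1.05, adjusted p = 0.0374). Madcam1, an addressin of lymphoid vessels, lay between -1.49 in M610 and 5.38 in M580 with a median of 4.25, against 1.04, -1.52, -2.97 and -1.74 (4.75 ± 1.20, adjusted p = 0.0110). The groups of all 3 overlapped. Tnfrsf11a, the receptor RANK, rose by 1.02 ± 0.33 (adjusted p = 0.0320). Cxcl13 did not pass without M580, F578, M5 or M602, nor Tnfrsf11a without F578, M278, M602 or M2, at adjusted p up to 0.117 and 0.113. Without M602 or without F578, 2 of the 8 rose. With library totals as the scale 8 of 8 did, where 35.3% of all genes rose and the median change of all genes was 0.326.

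Some markers of other leukocytes also rose in the anomalies, and their part in the changes of the set was not tested. T cell markers rose in 7 of 13 tested (median 1.93), and their summed level was 225 to 667 CPM in the anomaly animals, against 52.6 to 106 CPM in the normal animals. The highest sum, in M610, was mostly Thy1, a gene that stromal cells also express, at 587 CPM, whereas Cd3d, a chain of the T cell receptor complex, was lowest there among the anomaly animals, at 1.32 log2 CPM. Without Thy1 the other 12 genes summed to between 54.7 CPM in F578 and 235 CPM in M278, against 25.8 to 73.4 CPM in the normal animals, so that the groups overlapped. Macrophage markers rose in 5 of 10 (median 1.61), at 965 CPM in M566 to 6290 CPM in 18f, against 787 to 1580 CPM. Dendritic cell markers rose in 4 of 7 (median 1.18), at 294 to 943 CPM, against 216 to 323 CPM. No gene of these lists was at 0 reads throughout a group. Without M602 2 T cell, 3 macrophage and 2 dendritic cell markers rose, and without the arm piece of M566 2 dendritic cell markers did. Macrophage markers rose in 8 of 10 without both pieces of M566, without these and M580, with library totals as the scale and with the fat-titled anomalies alone, and in 3 without M580 and F539. Of all genes, 35.3% rose with library totals as the scale and 6.58% with the fat-titled anomalies alone. T cell markers rose in 4 without M580 and both pieces of M566, and dendritic cell markers in 1 with the fat-titled anomalies alone. The summed macrophage markers were highest in 18f and M278, and Cd79a was lowest in 18f.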

How the data were processed

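RNA from snap-frozen tissue was made into unstranded poly-A libraries, per the labels' protocols. STAR, limma and the builds mm10 and GRCm38 are named in the submitters' processing notes; their versions, the normalization and the prior are not given in the sources used here. The authors deposited log2 CPM values with the same lowest value, -6.97, in all 12 libraries. Linear values were whole multiples of 1 step per library (within 0.1 of a whole number), which gave the reads per gene.

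The pieces of M566 were averaged. The 12955 genes whose level averaged 1 log2 CPM or more across 11 animals were fitted with limma 3.58.1 (lmFit, eBayes with trend and robust moderation, R 4.3.3), two-sided, with Benjamini-Hochberg adjustment over all of them and a threshold of 0.05. The limma p-values measure the spread between animals. The subQ-titled and fat-titled anomalies were compared in a fit of 3 groups. The 4 relations were tested with exact permutations (scipy 1.17.1). The scripts were tested on simulated data. Alternatives changed the scale, the test (limma-voom), the filter, the pseudocount (0.5 or 1), the moderation and the animals included.

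The genes and lists were chosen with earlier results of these data known. All 29 genes are described; of other lists, up to 4 genes past the threshold with the largest change and those of the relations are named, except that some listed genes are not reported here. Ebf1, Cd55, Bcl6, Igkc, Igha, Ell2, Xbp1, Thy1, Cd3d, Tesk1 and Spata24 were named after their values were seen. A gene that passed the filter through its anomaly values had to differ, so counts and medians over tested genes are descriptions. Symbols and coordinates are those of GENCODE vM21 (GRCm38) and promoters those of RefSeq (GRCm38.p6).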

Additional observations from a re-analysis of the deposited data

Results flagged for a closer look

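Of 58 groups of 4 or 7 animals checked, 2 held an animal farther from the others than Dixon's critical value allows, where chance gives about 1 in 20. Fcrl1 stood at -2.02 log2 CPM in normal animal M602, from 6 reads, where the other normal animals were between -0.12 and 0.10. Without M602 Fcrl1 still rose (2.20, adjusted p = 0.0378). Tnfrsf17 was at -6.97 log2 CPM, the value of 0 reads, in anomaly animal M610, where the other anomaly animals were between -2.40 and 0.80.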

How the results depend on the processing

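Of 625 comparisons of 25 genes under 25 alternatives, 575 kept their direction and side of the threshold, 39 fell short of it, 10 newly passed it and 1 reversed, Blk at -0.21 with the fat-titled anomalies alone; 23 genes were higher in the anomalies under every alternative. That setting left 4 genes of the set, 1512 genes in all, 852 higher and 660 lower, past the threshold, with fewer animals in the fit. With library totals as the scale, 4573 genes were higher and 1575 lower, against 1985 and 3001, and the median change of all genes was 0.326 against -0.10; the cause was not tested. Leaving out 1 library gave 3042 to 5815 genes past the threshold (4986 with all), 1189 to 2290 higher, 1853 to 3525 lower, and 8 to 20 genes of the set. It gave r between 0.09 and 0.89 for Cd79a with Cd3e and between 0.37 and 0.90 for Cd79a with Cxcl13, and without M580 and both M566 pieces r was 0.93 for Cd79a with Jchain (adjusted p = 0.05). No paired analysis was possible because no animal named in the titles gave both an anomaly and a normal piece. Omitting M580 and F539 was chosen after seeing the data. At 953994 reads, M580 limits the low genes most.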

Other observations

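The balance of Ighm to the kappa light chain gene Igkc differed between animals. The lambda light chain genes were not included. Ighm minus Igkc, both in log2 CPM, was -4.95 in the anomaly of M580, -0.58 in M605, -0.03 in M278, 0.46 in 18f, 0.84 in F578 and 1.23 in M610, and for M566 it was -1.6 in the leg piece and 0.70 in the arm piece. In normal adipose it was 0.64 in F539, 4.53 in M5, 5.73 in M602 and 1.03 in M2. Levels of different genes are set side by side here without a correction for length, so the differences between animals carry the description. It was not tested.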
